A study of Homo sapiens with 26 samples.

Results

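The regions bound by HALO-tagged FOXA1 were compared with the regions bound by HALO-tagged HNF4A at an equal number of peaks. The members were all 38291 rows of the down-sampled FOXA1 peak list and all 38291 rows of the HNF4A list, 76582 regions of the 437877 rows in the 6 lists of the series. They were measured by chromatin immunoprecipitation and sequencing (ChIP-seq) in the BJ line, an established culture of fibroblasts from human foreskin. In the FOXA1 group the cells expressed FOXA1 fused to the HALO tag ectopically for 48 hours, and in the HNF4A group they expressed HNF4A fused to the same tag for the same time. Both groups shared the line and the medium, and 1 antibody, raised against the tag, captured both proteins. The labels give 2 ChIP libraries and 2 input libraries for each factor, but 1 list for each, and whether a list came from 1 library or from pooled libraries is not given in the sources used here. There was therefore no replicate error and no test. The lists hold no expression values, so the labelled cell type was not checked against its markers. Intervals given with shares are Wilson intervals at the 95% level and hold nothing but the counting error of peaks. A peak is an interval in hg19 coordinates with the authors' score, and its centre is the deposited summit for HNF4A and the midpoint for FOXA1.

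FOXA1 is a forkhead transcription factor whose winged-helix domain can engage its site on nucleosomal DNA, which is why it is called a pioneer factor. HNF4A is a nuclear receptor that binds as a homodimer to direct repeats of a short hexamer. Both are central regulators of hepatocyte genes, and in liver they occupy many of the same enhancers, so fibroblasts show where each goes outside its usual cell type.

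The sites with the highest scores that contained each factor's own core show the base composition that separated both lists. The forkhead core searched was TGTTTAC or TATTTAC and the HNF4 core was CAAAGTCCA, each on both strands, and capitals mark the core. All stretches are 50 bp to each side of the middle of a core, on the plus strand of GRCh37 (hg19). The FOXA1 sites lay in introns of SH3RF3, an E3 ubiquitin ligase gene (chr2:110080877-110080977, score 812), of FANCC, a Fanconi anaemia DNA repair gene (chr9:98068224-98068324, score 794), and of ATP11B, a phospholipid flippase gene (chr3:182620103-182620203, score 789).
FOXA1 site in SH3RF3: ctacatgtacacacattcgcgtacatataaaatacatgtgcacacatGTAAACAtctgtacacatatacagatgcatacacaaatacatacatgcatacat
FOXA1 site in FANCC: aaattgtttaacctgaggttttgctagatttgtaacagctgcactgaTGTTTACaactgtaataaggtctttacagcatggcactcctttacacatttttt
FOXA1 site in ATP11B: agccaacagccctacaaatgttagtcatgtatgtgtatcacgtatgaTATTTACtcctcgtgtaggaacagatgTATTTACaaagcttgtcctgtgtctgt
Their GC content was 33.7%, 34.7% and 39.6%. The ATP11B stretch held the core a second time.

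The HNF4A sites lay in an exon of PAXIP1, a DNA damage response gene (chr7:154742781-154742881, score 977), in an intron of MAP3K14, the kinase of the noncanonical NF-kappaB pathway (chr17:43371291-43371391, score 840), and in an intron of the zinc finger gene ZNF776, 639 bp from its start (chr19:58258806-58258906, score 776).
HNF4A site in PAXIP1: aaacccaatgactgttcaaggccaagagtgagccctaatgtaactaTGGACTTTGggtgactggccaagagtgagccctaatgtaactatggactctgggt
HNF4A site in MAP3K14: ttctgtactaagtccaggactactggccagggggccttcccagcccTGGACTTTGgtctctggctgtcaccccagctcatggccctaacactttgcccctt
HNF4A site in ZNF776: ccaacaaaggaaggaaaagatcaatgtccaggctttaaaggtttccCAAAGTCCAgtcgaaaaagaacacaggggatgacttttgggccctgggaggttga
Their GC content was 47.5%, 58.4% and 46.5%. A further HNF4A stretch, chosen after its values were seen, holds a GC box (GGGCGG, in capitals). It comes from the highest-scoring such peak near a start that was not passed over by the same limits. It lies 216 bp from a start of YAP1, the transcriptional effector of the Hippo pathway (chr11:101980901-101981001, score 1722).
HNF4A site at YAP1: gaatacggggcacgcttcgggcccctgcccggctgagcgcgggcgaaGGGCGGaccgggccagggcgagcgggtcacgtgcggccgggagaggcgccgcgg
Its GC content was 80.2%, and it was one of many such sites in the HNF4A list and of a kind nearly missing from the FOXA1 list, as described below.

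As lists of intervals the groups were alike. FOXA1 peaks had a median width of 299 bp and covered 13.4 Mb. HNF4A peaks had a median width of 287 bp and covered 13.1 Mb. Scores began at 20 in each list, with a median of 124 for FOXA1 and 99 for HNF4A, and were compared only within a list. The full FOXA1 list of 155652 peaks contains all rows of the down-sampled one and has the same median score. The HNF4A list has 1 mitochondrial peak, which was left out, so 38290 were used.

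The factors differed in their relation to transcription starts. Of the FOXA1 peaks 8.90% (8.62 to 9.19) had the centre within 1000 bp of an annotated start of any gene, against 38.4% (37.9 to 38.9) of the HNF4A peaks and 7.5% of all 200 bp windows of the genome. The difference was 29.5 percentage points (29.0 to 30.1). Within 100 bp of a start lay 0.883% of FOXA1 peaks and 13.2% of HNF4A peaks, where the genome has 1.02%. FOXA1 peaks thus stood close to the genome's share and HNF4A peaks far above it. The median distance to the nearest start was 9607 bp for FOXA1 and 2683 bp for HNF4A.

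Away from starts FOXA1 peaks were mostly intronic. Introns held 64.5% of FOXA1 peaks, 39.4% of HNF4A peaks and 52.3% of genome windows, after windows near starts and in exons had been assigned. Space between genes held 21.3% of FOXA1 peaks and 18.4% of HNF4A peaks, both below the genome's 36.9%. The share beyond 100 kb from any start was 3.22% for FOXA1 and 0.870% for HNF4A, against 6.67% of the genome. The score did not separate FOXA1 peaks by position, since the share near starts lay between 8.68% and 9.44% in 5 classes of rising score. For HNF4A it was 39.98% in the lowest class, 34.6% in the next and 45.0% in the highest.

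The view from the 5′ ends of genes was sharper still. Annotated starts include internal starts of alternative transcripts, so each of 20162 protein-coding genes was also given 1 start, the outermost 5′ end of its record. HNF4A centres were densest in the first 200 bp downstream of these ends, with 1868 centres. FOXA1 centres were sparsest in the same bin, with 14. In the 200 bp to each side the mean was 1708.5 HNF4A centres per bin, 15.0 times the mean beyond 3 kb (113.65), and 26.0 FOXA1 centres per bin, 0.386 times the mean beyond 3 kb (67.4). HNF4A peaks piled up where FOXA1 peaks were depleted.

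**Figure D1:**
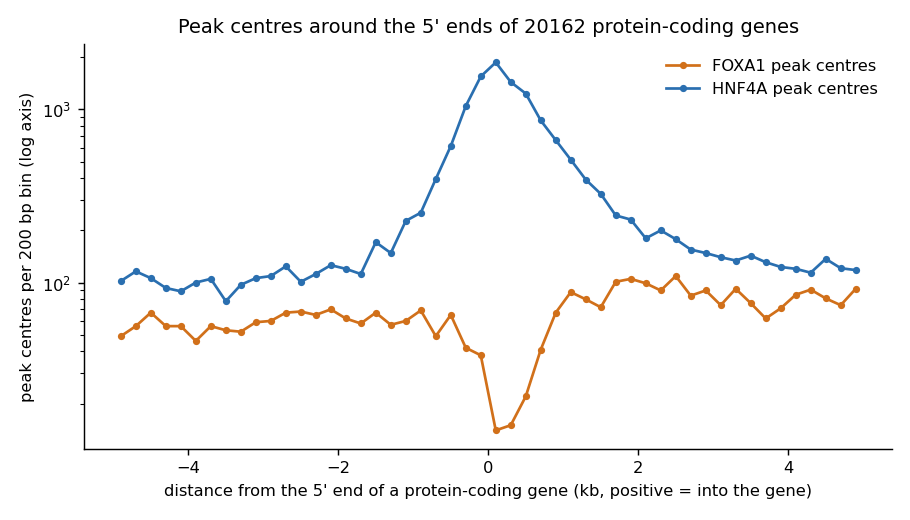
Number of FOXA1 and HNF4A peak centres in 200 bp bins (log axis) by distance from the 5′ ends of 20162 protein-coding genes, with positive distances inside the gene. The HNF4A line peaks at 1868 centres just inside the gene, where the FOXA1 line falls to 14.

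The genes with the highest-scoring peaks near starts followed that split. The 8 of the HNF4A list were NDUFAB1, a mitochondrial acyl carrier protein and respiratory complex I subunit (score 2077), MIIP (1757), YAP1 and the basement membrane gene NID2 (1722 each), the histone methyltransferase PRDM2 (1684), the corepressor RCOR3 (1681), the NF-kappaB cofactor BCL3 (1521) and the cGMP-dependent kinase PRKG1 (1502). The NDUFAB1 peak lay in a coding exon 87 bp from a start (chr16:23607134-23607783) with a GC content of 69%. GC content at the other 7 ran from 64.5% at MIIP to 78.5% at BCL3. The peaks lay at the gene's own 5′ end in 7 of the 8 genes, all but PRDM2.

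The 8 of the FOXA1 list were GMPR2, a GMP reductase (659), the spliceosome factor PLRG1 (640), the double-strand break nuclease MRE11 (626), the prefoldin subunit PFDN5 (615), GCLC, the catalytic subunit of glutathione synthesis (601), the mitochondrial seryl-tRNA synthetase SARS2 (596), TAF1D of the RNA polymerase I selectivity factor (588) and ZCCHC7 (580). The GMPR2 peak (chr14:24703453-24704372) lay in an intron 667 bp from a start, with a GC content of 39.5%. GC content at the other 7 ran from 25.5% at ZCCHC7 to 43% at SARS2. None of the 8 had a FOXA1 peak within 1000 bp of the gene's own 5′ end, so all 8 were calls at internal starts. The highest-scoring FOXA1 peaks at 5′ ends, picked after their values were seen, were at SPATA9 (495) and at PM20D2 and UBAP1L (417 each), each more than 500 bp from the end itself, and none of these 3 genes had HNF4A there.

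Counted by gene, HNF4A reached a start of 9539 of 20162 protein-coding genes (47.3%) and FOXA1 a start of 1936 (9.6%). At the 5′ end alone the counts were 7786 genes (38.6%) for HNF4A and 416 (2.06%) for FOXA1, so 81.6% of the HNF4A genes and 21.5% of the FOXA1 genes kept their call. Genes called for FOXA1 had a median of 11 annotated starts, those called for HNF4A 8, and all protein-coding genes 5. Between gene start and end, FOXA1 centres lay in 7231 genes (35.9%) and HNF4A centres in 10805 (53.6%). The number of genes reached thus differed widely at an equal number of peaks. The median length was 72.7 kb for genes with FOXA1 at a start and 35.6 kb for those with HNF4A.

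Both factors had a peak at a start of 1320 genes, which were 68.2% of the FOXA1 genes and 13.8% of the HNF4A genes. At these genes the nearest pair of centres was a median of 11512 bp apart, and in 48 genes (3.64%) it was within 200 bp. Most such genes therefore carried the factors at different starts. With 1 start per gene, 183 genes had both, 44% of the FOXA1 genes and 2.35% of the HNF4A genes. The shares over all genes were then 38.6% for HNF4A and 2.06% for FOXA1, close to these values.

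CpG-rich promoters, here those with a GC content of at least 55% and an observed over expected CpG ratio of at least 0.65 in the 500 bp to each side of the 5′ end, numbered 9765. HNF4A was at a start of 64.7% of their genes and of 31.0% of the 10397 others. For FOXA1 the shares were 11.6% and 7.74%. These calls were at any annotated start, while the class was measured at the 5′ end. There 21.5% of the FOXA1 genes and 81.6% of the HNF4A genes kept their call. Among other gene classes, 3214 of 18702 long noncoding RNA genes (17.2%) had HNF4A at a start and 613 (3.28%) had FOXA1. Processed pseudogenes, retrotransposed copies without a promoter of their own, had 1.57% for HNF4A and 1.98% for FOXA1. Transcribed processed pseudogenes had 11.04% for HNF4A and 2.81% for FOXA1. Small nuclear RNA genes had 2.98% and 3.19%, and small nucleolar RNA genes 3.84% and 3.29%. The gap between the factors was thus wide at protein-coding and long noncoding RNA genes and small in several other classes.

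In the lists of genes that every cell uses, HNF4A counts stood at or above its background of 47.3%. FOXA1 counts at starts rested mostly on internal starts, as they did over all protein-coding genes. There 21.5% of the FOXA1 genes kept their call at the 5′ end, and the FOXA1 background at 5′ ends was 2.06%. HNF4A was at a start of 20 of 24 core spliceosome genes, led by SNRPE, an Sm ring protein (score 589), and FOXA1 at 1, SF3B3, a U2 snRNP subunit (102). Of 16 chaperonin and heat shock genes HNF4A had 14, led by the co-chaperone DNAJB1 (386), and FOXA1 4, the chaperonin subunits CCT4 (185), TCP1 (161), CCT6A (133) and CCT8 (121), of which CCT6A had it at the 5′ end. HNF4A was at 28 of 39 proteasome genes, led by PSMD7 (298). FOXA1 was at 9, led by PSMC2 (374), and at none by the 5′ end.

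Protein synthesis genes were alike. Of 20 aminoacyl-tRNA synthetase genes HNF4A had 16, among them LARS1 (303). FOXA1 had 8, or 40%, led by GARS1 (284), above its background of 9.6%. By the 5′ end, where its background was 2.06%, it had 1, IARS1. HNF4A was at 54 of 78 mitochondrial ribosomal genes, led by MRPL20 (915), and at 53 of 83 respiratory chain genes, led by the succinate dehydrogenase subunit SDHA (791). FOXA1 was at 4 and 5 of these, led by MRPS30 (486) and the complex I subunit NDUFV2 (363). The respiratory chain list does not hold NDUFAB1, whose HNF4A peak scored 2077. Cytosolic ribosomal genes gave 47 of 88 for HNF4A, led by RPL7A (1003), and 9 for FOXA1, led by RPL7 (434), each near its background. The zinc finger list held HNF4A at 300 of 476 genes, led by ZNF436 (1150), and FOXA1 at 19, led by ZNF207 (292).

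Metabolic and degradation genes were also often reached by HNF4A. It was at a start of 24 of 29 peroxisome and fatty acid oxidation genes. HADHA and HADHB, the subunits of the mitochondrial trifunctional protein, shared the highest peak (1474). FOXA1 was at 3 of these, ETFDH (241), ACADM (179) and PEX14 (50). Of 30 autophagy and lysosome genes HNF4A had 26, led by the cargo receptor SQSTM1 (776) and the cholesterol transporter NPC1 (674), and FOXA1 2, ATG7 (98) and SQSTM1 (74).

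Among genes of the fibroblast itself, most of the genes with FOXA1 at a start had HNF4A at a start too. The same was true of 68.2% of FOXA1 genes over all protein-coding genes, so this was no trait of the fibroblast lists. FOXA1 shares were 5.56% in the identity list, 16.7% in the TGF-beta list and 6.67% in the AP-1 and TEAD list. Their intervals all held the FOXA1 background of 9.6%, while the HNF4A intervals lay above its background of 47.3%. Of 18 genes for fibroblast identity factors HNF4A had 13, led by the mesenchymal homeobox gene PRRX1 (601), TWIST2 (514) and TBX5 (339). FOXA1 had 1, ZEB2, a repressor of epithelial genes (100), which also had HNF4A (127). Of 18 TGF-beta pathway genes HNF4A had 16, led by SKIL (858), SMAD3 (813) and SMAD7 (534), and FOXA1 3, SMAD4 (399), TGFBR3 (188) and LTBP1 (62), of which TGFBR3 and LTBP1 had both. Of 15 AP-1 and TEAD family genes HNF4A had 13, led by YAP1 (1722) and TEAD3 (480), and FOXA1 1, also YAP1 (495).

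Matrix genes were the fibroblast list in which FOXA1 stood highest, at 5 of 23 (21.7%, 9.66 to 41.9). These were the small proteoglycans DCN (541) and LUM (369), the surface protease FAP (375), the collagen cross-linking enzyme LOX (319) and the large proteoglycan VCAN (56), and only LUM had it at the 5′ end. HNF4A had 13 of the 23, led by SPARC, a collagen-binding protein (415), and S100A4 (303). LUM, FAP and LOX had both factors. Among 44 collagen genes HNF4A had 15, led by COL9A3 (576) and COL6A1 (415), and FOXA1 3, COL24A1 (309), COL12A1 (239) and COL21A1 (218). Both intervals held the respective background (21.9 to 48.9 for HNF4A and 2.35 to 18.2 for FOXA1).

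The liver lists, with usual targets of both proteins, had lower shares than all protein-coding genes for both factors. Of 42 genes for liver plasma proteins HNF4A had 12 (28.6%, 17.2 to 43.6), led by the clotting factor gene F10 (605), VTN (507) and C3 (199), and FOXA1 had 1, AFP, alpha-fetoprotein (67). Of 32 liver metabolism genes HNF4A had 7 (21.9%, 11.02 to 38.8), led by FBP1 of gluconeogenesis (386), HPD of tyrosine breakdown (351) and ASS1 of the urea cycle (270). FOXA1 had 0 of the 32, with an upper limit of 10.7%. Of 20 genes for liver transcription factors HNF4A had 6, which were NR1I3 (246), HHEX (139), TBX3 (114), HNF4A itself (71), CEBPB (67) and CEBPA (41), and FOXA1 had 1, FOXA1 itself (105). All these shares stood below 47.3% and 9.6%, although the interval of the transcription factor list for HNF4A (14.5 to 51.9) and each FOXA1 upper limit reached past the background. CpG-rich promoters made up 2.38% of the plasma protein list, 9.38% of the metabolism list and 55% of the transcription factor list. Genes without such a promoter had 31.0% for HNF4A and 7.74% for FOXA1. The HNF4A intervals of the plasma protein and metabolism lists held this 31.0%. The part of promoter class was not tested.

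In tissue-restricted families the shares with a peak at a start were below the background for both factors. For FOXA1 the intervals of the clustered protocadherins (1.94 to 15.4) and keratins (0.322 to 9.61) nevertheless held its 9.6%. Of 399 olfactory receptor genes FOXA1 had 4, led by OR10A2 (170), and HNF4A had 1, OR56B1 (32). Of 53 clustered protocadherin genes FOXA1 had 3, PCDHGA9 (141), PCDHGB4 (133) and PCDHB16 (75), and HNF4A had 1, PCDHGC3 (117). In the other lists of this kind HNF4A had 4 of 55 keratin genes, led by KRT80 (136), and 15 of 83 interleukin, chemokine and related receptor genes, led by IL5 (765). FOXA1 had 1 and 0 of these.

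Among developmental and signalling families, HNF4A was at 14 of 39 HOX genes, led by HOXA9 (297), and FOXA1 at 1, again HOXA9 (164). It was at 20 of 46 forkhead genes, led by FOXD1 (911), and at 24 of 48 nuclear receptor genes, led by NR2F6 (674) and the retinoic acid receptor RARA (657). FOXA1 was at 6 forkhead genes, led by FOXN3 (396), and at 4 nuclear receptor genes, which were NR2C1 (139), NR2F2 (124), RARB (102) and THRB (88). The intervals of both factors held their backgrounds in these 3 lists, HOX genes included (22.7 to 51.6 for HNF4A and 0.454 to 13.2 for FOXA1). The remaining lists were integrins (16 of 30 for HNF4A, 3 for FOXA1), axon guidance genes (26 and 4 of 61), cell cycle genes (12 and 2 of 25), histones (17 and 5 of 64), cadherins (6 and 3 of 23), ion channels (8 and 3 of 50) and glutamate and GABA receptors (5 and 2 of 45).

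**Figure D2:**
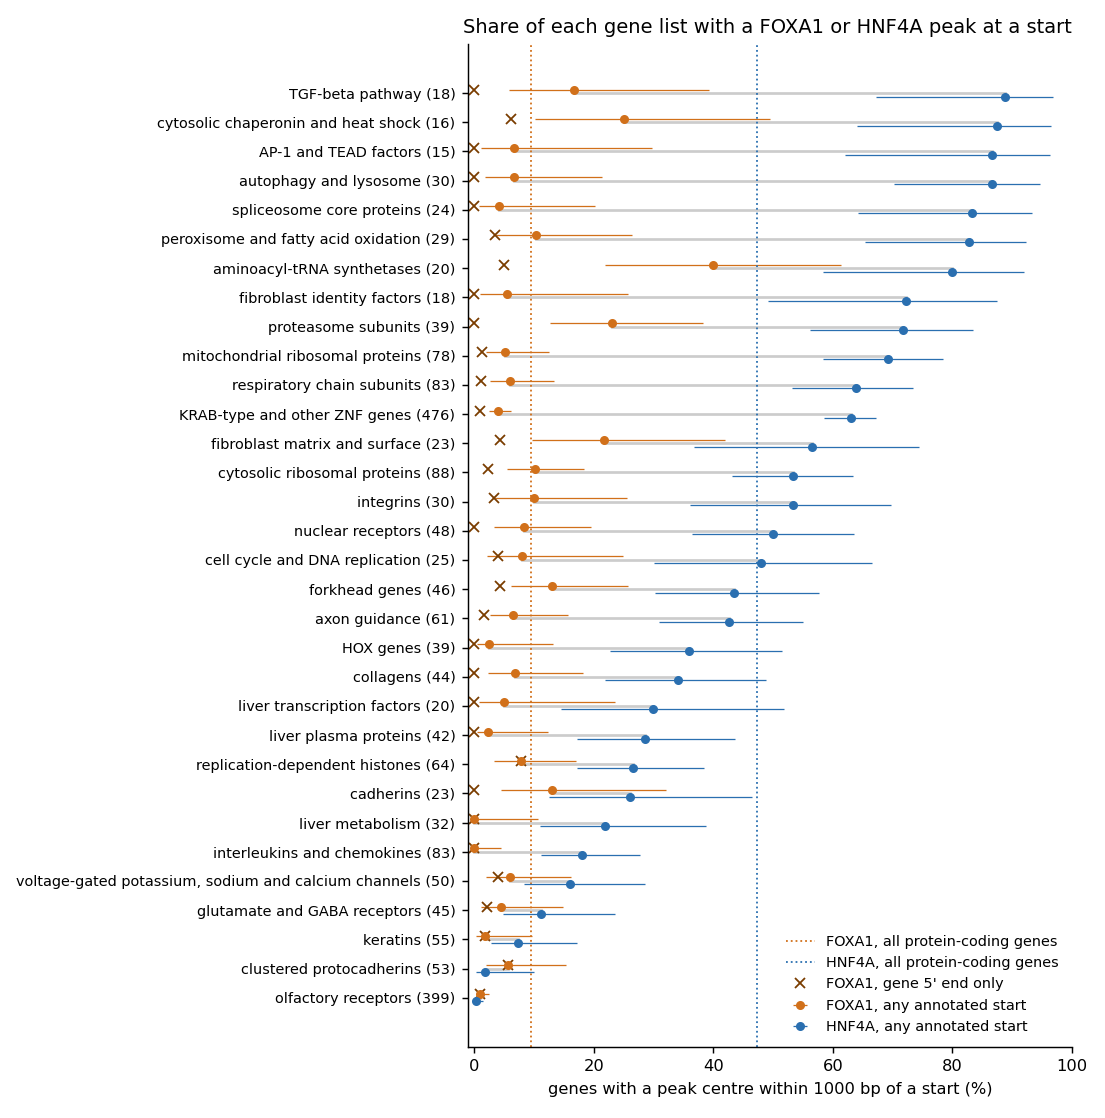
Share of genes in each of 32 lists with a peak centre within 1000 bp of an annotated start, with 95% Wilson intervals, list sizes in parentheses and dotted lines at the shares over all protein-coding genes; crosses give FOXA1 at the gene's 5′ end only. HNF4A points spread from 1 of 399 olfactory receptor genes to 16 of 18 TGF-beta genes, while FOXA1 points stay at or below 40%.

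In some long genes FOXA1 peaks far outnumbered HNF4A peaks. FOXA1 had 81 centres and HNF4A 0 in NEGR1, a neuronal cell adhesion gene (chr1:71861626-72748222, 886.6 kb). DPYD, the pyrimidine breakdown enzyme, had 53 and 3, and ASCC3, a helicase gene of 373 kb, 45 and 0. RBMS3 (51 and 9), NAALADL2 (48 and 6), the kainate receptor gene GRIK2 (46 and 5), VPS13B (46 and 7) and PRKG1 (44 and 10) followed. PRKG1 was thus among the 8 highest HNF4A peaks near a start and among the 8 genes with the largest excess of FOXA1 in the body.

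The largest excess of HNF4A was found in other genes, mostly shorter ones. GSE1, a gene of 507 kb on chromosome 16, had 27 HNF4A and 2 FOXA1 centres. The septin gene SEPTIN9 had 26 and 2, the neuron navigator genes NAV1 24 and 2 and NAV2 26 and 6, the podosome scaffold gene SH3PXD2A 24 and 3, CTIF 22 and 1, and ZMIZ1 20 and 1. Per length, SEPTIN9 had 11.8 HNF4A centres per 100 kb and NEGR1 9.14 FOXA1 centres per 100 kb. Summed over all protein-coding genes, the densities were 1.94 for FOXA1 and 1.98 for HNF4A per 100 kb.

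**Figure D3:**
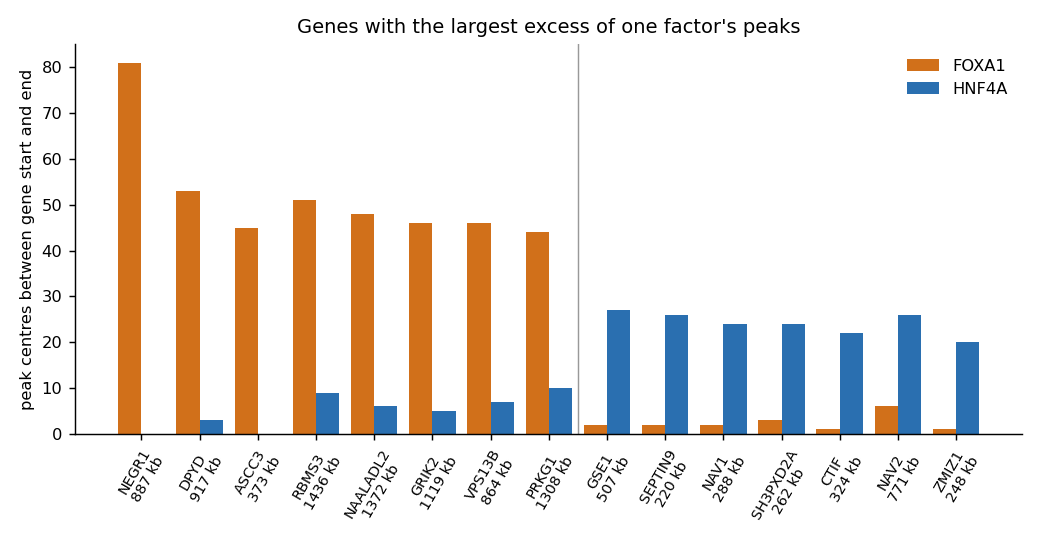
Number of FOXA1 and HNF4A peak centres between the start and end of 15 genes with the largest excess, 8 for FOXA1 and 7 for HNF4A, with gene length in kb. The FOXA1 genes at left reach 81 centres in NEGR1, and the HNF4A genes at right 27 in GSE1.

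HNF4A density in gene bodies fell with gene length, while FOXA1 density was highest at intermediate length. Bodies ran from gene start to gene end, so peaks just inside a start were counted, and these weigh more per length in short genes. The part of such peaks in the densities was not tested. In genes under 10 kb FOXA1 had 0.840 and HNF4A 8.11 centres per 100 kb. FOXA1 density was 1.55 at 10 to 30 kb, 2.16 at 30 to 100 kb, 2.38 at 100 to 300 kb and 1.5 at 300 kb and over. HNF4A density in the same classes was 4.71, 2.78, 1.76 and 0.711, so FOXA1 was the denser factor above 100 kb.

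Within families single long genes differed widely, and whole lists leaned the same way in some cases and not in others. Over all members axon guidance genes held 177 FOXA1 and 135 HNF4A centres. These lay in 19 (31.1%) and 42 (68.9%) of 61 genes, against 35.9% and 53.6% of all protein-coding genes. FOXA1 centres also outnumbered HNF4A centres in glutamate and GABA receptor genes (84 and 34), ion channel genes (84 and 71) and cadherin genes (48 and 42). Collagen genes held 111 and 128, integrin genes 67 and 78 and the clustered protocadherin genes, which overlap one another, 64 and 165. Among axon guidance genes ROBO1 had 36 FOXA1 and 3 HNF4A centres, SLIT2 28 and 5, ROBO2 20 and 5 and SEMA3A 19 and 1. Among collagens COL11A1 had 20 and 1 and COL5A2 17 and 2, while COL5A1 had 3 and 15. RUNX1, a fibroblast identity gene here, held many of both, 22 and 36.

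Base composition separated the lists almost completely. The median GC content of the central 200 bp was 32.5% for FOXA1 (middle 50% of peaks from 29.5% to 36%) and 52.5% for HNF4A (46.5% to 62.5%), against 40% for all windows of the genome. GC content under 40% was found in 91.8% of FOXA1 peaks, 4.07% of HNF4A peaks and 49.3% of genome windows. GC content over 60% was found in 6 FOXA1 peaks (0.0157%), in 29.1% of HNF4A peaks and in 2.86% of genome windows. FOXA1 peaks thus lay below the genome and HNF4A peaks above it.

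The difference was present away from starts as well. More than 1000 bp from any start the medians were 32.5% and 49%, against 39.5% for the genome. Near starts they were 33.25% and 64.5%, against 46%, so FOXA1 peaks near starts were as AT-rich as those elsewhere. A CpG-rich sequence (GC content of at least 50% and a CpG ratio of at least 0.6) was found in 59.9% of HNF4A peaks near starts and in 0.910% of FOXA1 peaks near starts. Fragment recovery by GC content could not be examined, since the lists hold no input reads, and its part in these values was not tested.

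**Figure D4:**
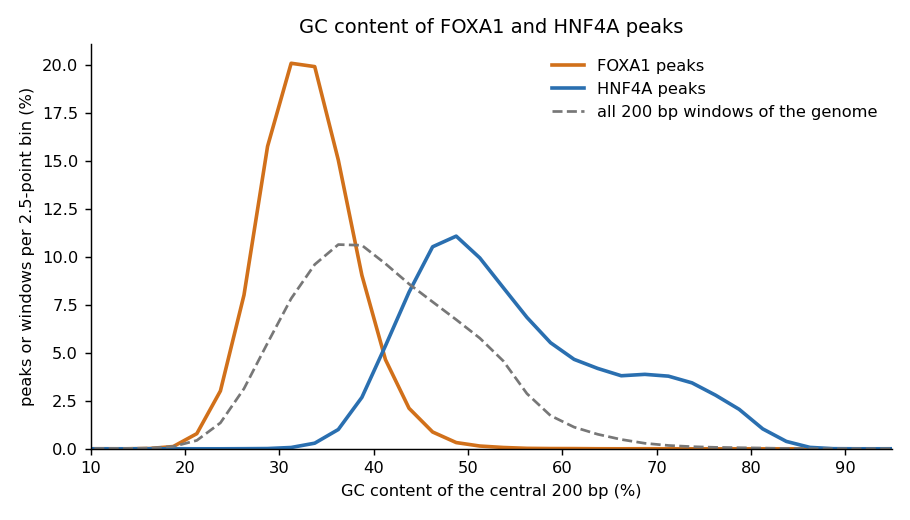
Share of peaks per 2.5-point bin of GC content in the central 200 bp for FOXA1, HNF4A and all 200 bp windows of the genome (dashed). The FOXA1 curve lies left of the genome's and the HNF4A curve right of it, with medians of 32.5%, 52.5% and 40%.

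Each factor's core was more frequent in its own list. The forkhead core occurred in 18.1% (17.7 to 18.5) of FOXA1 peaks, 3.25% of HNF4A peaks and 7.29% of genome windows of 200 bp. The HNF4 core occurred in 0.992% (0.898 to 1.10) of HNF4A peaks, 0.290% of FOXA1 peaks and 0.253% of windows. AGGTCA, a hexamer recognized by many nuclear receptors, occurred in 19.8% of HNF4A peaks, 6.18% of FOXA1 peaks and 12.5% of windows. The reversed forkhead core (CATTTGT or CATTTAT), which has the same base composition but is no forkhead site, occurred in 20.05% of FOXA1 peaks, 4.56% of HNF4A peaks and 12.3% of windows, so a part of the forkhead excess over the genome was shared by letters of equal composition.

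Windows of the same band of GC content away from starts gave a narrower comparison. At 40% to 50% GC the forkhead core occurred in 13.8% (12.5 to 15.1) of 2623 FOXA1 peaks, 5.12% of 11730 HNF4A peaks and 5.00% of genome windows. At 30% to 40% GC the shares were 17.5%, 7.61% and 9.70%. The HNF4 core at 40% to 50% GC occurred in 1.39% (1.19 to 1.62) of HNF4A peaks, 0.534% of FOXA1 peaks and 0.336% of windows. The difference between the lists thus held within these bands. GC content was not equal inside a band, however. Over all peaks, 4.64% of the FOXA1 list lay at 40% to 42.5% GC and 0.324% at 47.5% to 50%. For HNF4A the shares were 5.37% and 11.1%. The part of composition left within a band was not tested.

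Motifs of other factors also differed. The AP-1 site (TGANTCA), bound by FOS and JUN proteins, occurred in 31.9% of HNF4A peaks and 15.3% of FOXA1 peaks away from starts, against 6.33% of windows. At 40% to 50% GC the shares were 34.5% and 24.7%, against 7.03%. The TEAD site (GGAATG) occurred in 19.2% of HNF4A and 12.1% of FOXA1 peaks away from starts, against 10.6%. Near starts the order of these motifs was the other way, with the AP-1 site in 10.4% of HNF4A and 13.9% of FOXA1 peaks and the TEAD site in 10.1% and 11.5%. There the GC box occurred in 44.5% of HNF4A peaks and 0.646% of FOXA1 peaks, against 9.32% of windows, and the ETS site (CCGGAAG) in 6.76% and 0.235%, against 1.28%. Both strands were searched in each case, and where motifs overlapped, both were counted.

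By regional domains the genome was split again. The 100 kb windows were ranked by GC content into 4 classes of equal size. From the poorest to the richest they held 24.6%, 33.1%, 28.4% and 13.8% of FOXA1 peaks and 3.90%, 13.2%, 27.2% and 55.7% of HNF4A peaks. The richest class had 7.42 FOXA1 and 29.96 HNF4A peaks per Mb, and the poorest 13.2 and 2.09. HNF4A density rose through all 4 classes, and FOXA1 density was highest in the class above the poorest. Regions more than 500 kb from any protein-coding gene held 3.49% of FOXA1 and 0.65% of HNF4A peaks, against 8.54% of the genome. The outer 5 Mb of chromosome arms held 3.83% and 11.1%, against 7.08%.

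Chromosome 19, the most gene-dense, had 4.62 FOXA1 and 31.2 HNF4A peaks per Mb, where the genome had 13.4 of each. Chromosome 22 had 6.94 and 26.3, chromosome 17 11.4 and 27.5, and chromosome 4 15.1 and 7.51. The X chromosome was low for both, with 3.77 and 2.73. Gene-dense chromosomes thus leaned to HNF4A.

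**Figure D5:**
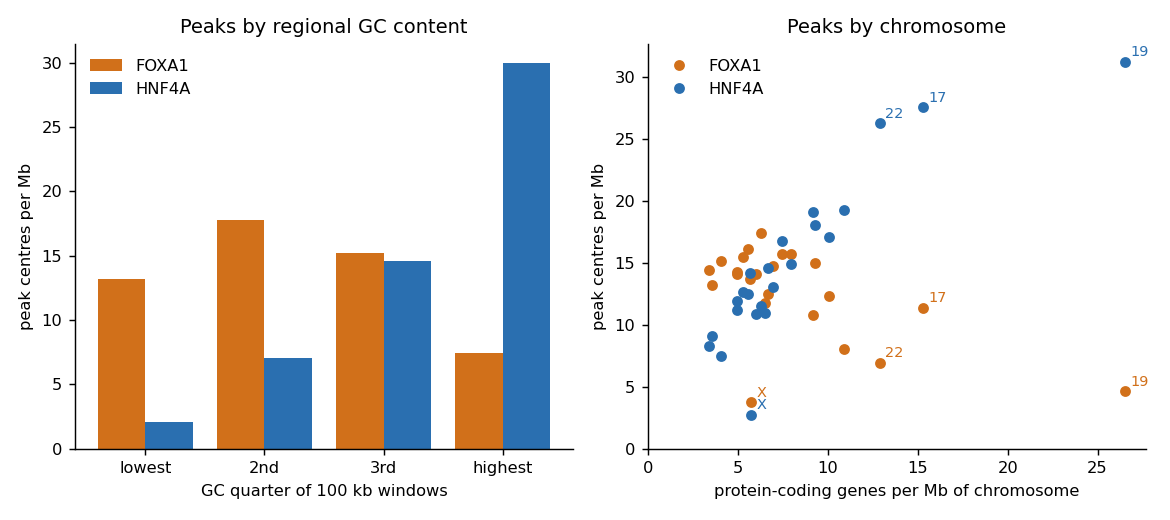
Left, peak centres per Mb in 4 classes of 100 kb windows by GC content; right, peak centres per Mb of each chromosome (1 to 22 and X) against its protein-coding genes per Mb. HNF4A bars rise to 29.96 per Mb in the richest class where FOXA1 falls to 7.42, and chromosome 19 lies highest for HNF4A and near the bottom for FOXA1.

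Windows of 1 Mb showed single loci. The largest FOXA1 excess was at chr1:72000001-73000000, which holds NEGR1, with 74 FOXA1 peaks and 1 HNF4A peak. The others were at GRIK2 and ASCC3 on chromosome 6 (61 and 7), at CACNA2D1 and HGF, hepatocyte growth factor, on chromosome 7 (50 and 2), at CBLB and ALCAM on chromosome 3 (62 and 15) and at the collagen genes COL5A2 and COL3A1 on chromosome 2 (52 and 8). These windows had a GC content of 34.9% to 36.3% and 1 or 2 protein-coding starts each.

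The largest HNF4A excess was at chr11:65000001-66000000, with 100 HNF4A and 7 FOXA1 peaks over 41 protein-coding starts, among them CFL1, the actin-severing factor cofilin. The others were the windows of ARID1A on chromosome 1 (85 and 4), BAIAP2 on chromosome 17 (83 and 3), and STK11 (78 and 0) and CRTC1 (72 and 5) on chromosome 19. Their GC content was 49.6% to 59.1%. Over 2869 windows the rank correlation between the densities of both lists was 0.44, that of HNF4A with GC content 0.75 and that of FOXA1 with GC content -0.0029. These values describe windows that share gene content and mappability, and carry no test.

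Few peaks of either list were overlapped by the other. FOXA1 peaks covered 13.4 Mb and HNF4A peaks 13.1 Mb of 2858.7 Mb of known bases. The overlap of randomly placed peaks was not computed, so the shares do not show avoidance or attraction. Of the FOXA1 peaks 650 (1.70%, 1.57 to 1.83) were overlapped by an HNF4A peak by at least 1 bp, and of the HNF4A peaks 653 (1.71%, 1.58 to 1.84). An HNF4A centre lay within 100 kb of 83.0% of FOXA1 peaks and within 10 kb of 26.3%. The genome had 13.4 HNF4A peaks per Mb, and the same shares for genome windows were not computed. These distances therefore do not show whether the lists lie closer together or further apart than their numbers alone would give. With the full FOXA1 list 1.68% of FOXA1 peaks and 6.76% of HNF4A peaks were overlapped, so the HNF4A share depends on the down-sampling. The pairs with the highest scores on both sides were at RHOBTB3 (FOXA1 score 406, HNF4A score 786), near DNAAF4 (388 and 824), in ANO6 (396 and 376), DHX16 (340 and 364) and SLK (307 and 345), nearest to FN1 at a distance of 264799 bp (458 and 339), in PAK2 (354 and 324) and near OSBPL3 (295 and 505). At RHOBTB3 the FOXA1 peak (chr5:95068127-95069417) had a GC content of 31% and the HNF4A peak (chr5:95067755-95068321) 50%. At all 8 pairs the FOXA1 centre was lower in GC than the HNF4A centre.

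Shared peaks differed from the other peaks in composition and in motif shares. Their median GC content was 38.25% in the FOXA1 list and 44% in the HNF4A list, between the medians of the lists. The AP-1 site occurred in 32% (28.5 to 35.7) of shared and 14.9% of other FOXA1 peaks, and in 35.2% (31.7 to 39.0) of shared and 23.4% of other HNF4A peaks. The forkhead core occurred in 16.5% of shared and 18.1% of other FOXA1 peaks, and in 8.27% (6.39 to 10.6) of shared and 3.17% of other HNF4A peaks. The other HNF4A peaks include those overlapped only by FOXA1 peaks that the down-sampled list leaves out. Of the shared peaks 17.8% lay near a start. Under the limits set for printed stretches, the highest-scoring shared FOXA1 site with a forkhead core lay in an intron of MYO1E, an unconventional myosin gene (chr15:59502481-59502581, score 624). It is shown on the plus strand with the core in capitals.
Shared site in MYO1E: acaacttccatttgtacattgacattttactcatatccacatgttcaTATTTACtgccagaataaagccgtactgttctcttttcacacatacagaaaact

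The strongest distal sites completed the contrast. Among peaks more than 10 kb from any start high HNF4A scores were found in an intron of LHFPL2 (1562), between genes nearest to CD58 (1483), in AMOTL1, a YAP1-binding angiomotin family gene (1412), nearest to TBX5 (1388) and nearest to IGF2 (1361). Their GC content ran from 49.5% to 63.5%. The highest FOXA1 scores were nearest to ATP23 and to SLC4A3 (962 each), to SSX2IP (862), in KIF13B (840), in SH3RF3 (812) and in an exon of LRRC58 (809), with a GC content of 28% to 38%. Of these 11 peaks, the one in SH3RF3 held its own factor's core, and none was overlapped by the other list.

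The gene of each expressed factor was looked at last. In the HNF4A gene (chr20:42984339-43061485) the HNF4A list had 11 peaks, and 10 of them each lay on a different stretch of coding exon, 10 of the gene's 17. Their scores were 35 to 168 and their fold enrichments 2.15 to 3.32, where the list's median fold enrichment was 5.92 and 1.63% of its peaks were at 3.32 or lower. The eleventh, in an intron, scored 262 with a fold enrichment of 10.5. No other protein-coding gene had as many coding stretches touched in the HNF4A list, the next being LTBP3 and SLC3A2 with 7. The FOXA1 list had 2 peaks in the HNF4A gene and none on a coding stretch. In the FOXA1 gene (chr14:38058757-38065264) the HNF4A list had 1 peak on a coding stretch (763) and the FOXA1 list 1 peak outside it (105). The lists do not separate reads of an expression construct from reads of the gene itself, and the part of such reads was not tested. The HNF4A call at its own start in the lists above (71) is one of the 10 peaks.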

How the data were processed

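The samples were grouped by their titles. Both lists were used as the authors deposited them. Each FOXA1 row has a score, and each HNF4A row a score, a fold enrichment (ratio), and −log10 p and q-values, all deposited by the authors. The submitters' processing notes name Bowtie2 2.3.4.1, Picard, GATK 4.2.6.0, bedtools 2.27.1, MACS2 2.2.7.1, deepTools 3.5.0 and hg19, without roles or order. How the FOXA1 list was down-sampled is not given in the sources used here. No read counts were given, so read depth is unknown. How thresholds and read depth affect which peaks entered a list was not tested.

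Centres were set against GENCODE 44 (lifted to GRCh37) with Python 3.11.15, numpy 2.4.6 and pandas 2.3.3. HNF4A peaks were ranked by −log10 q, FOXA1 peaks by score. Of the HNF4A rows 700 have a summit beyond their end, and their midpoint was used. Of the FOXA1 rows 1539 are numbered pieces of a peak. Genome shares come from all 200 bp windows without unknown bases. Overlapping genes may share a peak. The code was tested on simulated data.

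The members, the 32 gene lists, the 13 motifs and the tests were chosen with earlier results of these data known. Named by rule were the genes of the 8 highest-scoring peaks within 1000 bp of a protein-coding start, of the 6 highest beyond 10 kb, the 8 gene bodies and 5 windows of 1 Mb with the largest excess, the 8 best overlapping pairs, the list members with the highest-scoring peak, and called members of lists under 25 genes, of which the text gives the highest. A few items that the rule names are not reported here.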

Additional observations from a re-analysis of the deposited data

How the results depend on the processing

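No paired analysis was possible because each factor has 1 list without a replicate number, and no replicate could be left out. HNF4A exceeded FOXA1 in share near starts, median GC, genes reached and share in the richest GC class in 24 of 24 settings compared. The 24 include the reported setting of each measure, and some of the others changed the peaks of 1 factor only. Of 44 alternative values, 16 stayed within the interval of the reported value (for gene counts, within 1.5 times) and 28 moved. Near starts, counting starts of protein-coding genes alone gave 6.23% (FOXA1) and 33.6% (HNF4A), and 2500 bp gave 20.2% and 49.1%. The top 50% of peaks by score gave 40.01% of HNF4A peaks near starts, a median GC of 53%, 1089 FOXA1 and 6127 HNF4A genes, 56.7% of HNF4A peaks in the richest class, overlaps of 0.987% and 0.982%, the forkhead core in 18.6% of FOXA1 and the HNF4 core in 1.15% of HNF4A peaks. The central 100 bp gave a median GC of 32% and 54% and cores in 10.0% and 0.609%. Peaks far from starts gave 49% GC for HNF4A, and 13.1% (FOXA1) and 52.1% (HNF4A) in the richest class. Windows of 1 Mb gave 17.7% and 51.8%. The full FOXA1 list gave 4929 FOXA1 genes and overlapped 6.76% of HNF4A peaks. At 2500 bp FOXA1 reached 3703 genes. Centres within 200 bp gave overlaps of 1.10% and 1.10%. With 1 start per gene, chosen after the data were seen, FOXA1 reached 416 genes and HNF4A 7786. Beyond each alternative's own construction, the causes were not tested.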
